A study of Mus musculus with 10 samples.

Results

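The genes described here are the G1 cyclins, cyclin-dependent kinases (CDKs) and CDK inhibitors that set the restriction point of the cell cycle, 10 of the 46517 mouse genes counted in each table. They were taken as a fixed list of names. All 10 were found: the D cyclins *Ccnd1*, *Ccnd2* and *Ccnd3*, the kinases *Cdk4* and *Cdk6*, the inhibitors *Cdkn1a* (p21), *Cdkn1b* (p27), *Cdkn1c* (p57) and *Cdkn2a* (p16/p19ARF), and *Rb1*. Single endothelial cells of mouse ear skin had been sorted by CD31 and Podoplanin and sequenced by Smart-Seq2, which reads along the whole cDNA and carries no molecular barcode. The mutant mice were *Pik3caH1047R;Cdh5-CreERT2* and Cre+. Their Cre is driven by the pan-endothelial *Cdh5* promoter, so that blood and lymphatic endothelium can both recombine, and the mutant *PIK3CA* transcript itself was not analysed here. They received 4-OHT on the ears at 3 wk and were analysed at 5 wk of age. Control 1 was an untreated C57BL/6J mouse, bred apart from the others, and control 2 was a Cre- mouse of the mutant strain that received 4-OHT at 3 wk. Both controls were 5 wk old. The comparison of 5 mutant mice with these 2 controls asks how the G1 machinery differs with PI3K activation in LECs, the endothelial cells of lymphatic vessels, and in BECs, those of blood vessels.

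D cyclins bind CDK4 and CDK6 in response to mitogens, and the complexes phosphorylate RB1, which releases E2F transcription factors and lets the cell enter S phase. The CIP/KIP proteins p21, p27 and p57 bind cyclin-CDK complexes, and p27 is a known target of PI3K-AKT signaling through FOXO factors. The *Cdkn2a* locus encodes p16, which blocks CDK4 and CDK6, and p19ARF, which acts on p53. In skin, most endothelial cells are quiescent unless vessels grow.

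The members lie on 7 chromosomes in mouse genome GRCm38. The D cyclins are *Ccnd1* (chr7:144929931-144939925, minus strand), *Ccnd2* (chr6:127125162-127152193, minus strand) and *Ccnd3* (chr17:47505051-47599691, plus strand). The kinases are *Cdk4* (chr10:127063534-127067920, plus strand) and *Cdk6* (chr5:3341485-3531008, plus strand). The CIP/KIP inhibitors are *Cdkn1a* (chr17:29090976-29100727, plus strand), *Cdkn1b* (chr6:134920401-134925513, plus strand) and *Cdkn1c* (chr7:143458339-143461050, minus strand). *Cdkn2a* spans chr4:89274471-89294653 on the minus strand and *Rb1* chr14:73183673-73325822 on the minus strand. Exons of other genes overlap those of 8 members, and the counting is not stated to use strand, so reads of a member and of the gene across it cannot be told apart. The overlap takes 30.7% of the exon bases of *Cdkn1c*, 23.4% of *Ccnd1*, where the neighbour is *LTO1*, 19.7% of *Cdk4*, where it is *Tspan31*, and 14.9% of *Rb1*. It is under 8% for *Ccnd2*, *Cdkn1a*, *Ccnd3* and *Cdk6*, and 0% for *Cdkn1b* and *Cdkn2a*. These shares are of GENCODE vM21 exons. The deposited exon lengths are shorter for *Ccnd1* (3835 against 4709 bases), *Cdkn1c* (1931 against 2039) and *Cdkn1a* (2223 against 3553). For these the overlap of the exons that were counted is not known.

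Promoters are shown for *Cdk6*, *Cdkn1a* and *Cdkn1b*, which are among the 4 members higher in LECs than in BECs of mutant mice. RefSeq (GRCm38.p6) gave start sites for 6 of the 10 members. Each line gives the 250 bases before the start, 5′ to 3′ on the plus strand, and capitals mark the motifs found. These were searched on both strands as the E2F-type letters TTTNNCGC, the CCAAT box and the GC box, whose letters are GGGCGGG. The FOXO-type letters searched were TGTTTNC.

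*Cdk6*, chr5:3343643-3343892: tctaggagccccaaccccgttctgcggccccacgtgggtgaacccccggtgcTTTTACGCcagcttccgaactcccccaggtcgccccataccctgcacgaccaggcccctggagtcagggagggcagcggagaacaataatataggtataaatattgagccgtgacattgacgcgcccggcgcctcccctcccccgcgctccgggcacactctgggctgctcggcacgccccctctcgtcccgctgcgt

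*Cdkn1a*, first start, chr17:29090729-29090978: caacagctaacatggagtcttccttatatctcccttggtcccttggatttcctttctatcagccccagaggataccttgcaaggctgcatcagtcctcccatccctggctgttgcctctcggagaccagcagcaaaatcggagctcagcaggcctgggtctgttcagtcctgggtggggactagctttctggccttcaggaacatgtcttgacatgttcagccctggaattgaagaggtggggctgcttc

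*Cdkn1a*, second start, chr17:29093519-29093768: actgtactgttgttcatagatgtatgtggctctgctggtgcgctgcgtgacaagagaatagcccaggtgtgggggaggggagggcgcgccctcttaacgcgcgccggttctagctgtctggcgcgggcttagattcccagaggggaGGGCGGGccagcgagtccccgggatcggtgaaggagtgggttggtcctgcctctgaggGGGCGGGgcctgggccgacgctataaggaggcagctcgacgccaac

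*Cdkn1b*, chr6:134920151-134920400: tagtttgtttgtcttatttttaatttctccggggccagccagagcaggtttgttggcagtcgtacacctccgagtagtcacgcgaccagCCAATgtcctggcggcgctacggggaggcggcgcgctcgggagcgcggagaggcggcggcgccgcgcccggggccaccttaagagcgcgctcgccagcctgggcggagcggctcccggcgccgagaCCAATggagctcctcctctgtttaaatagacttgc

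The *Cdk6* window held 1 E2F-type match, which began 198 bases before the start. Of all 32851 promoters of this length, 4.28% held that motif. The second *Cdkn1a* start had GC boxes 104 and 46 bases upstream, a motif of 23.4% of promoters, and the first start had none of the 4 motifs. In the *Cdkn1b* window the CCAAT boxes began 161 and 35 bases upstream, a motif of 33.8% of promoters. None of the 4 windows held the FOXO-type letters, which 17.8% of promoters did.

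Cells were assigned by 3 genes per class: LECs where *Prox1*, *Flt4* and *Mmrn1* summed to at least 300 CPM (reads scaled to a common total per cell or sum) and exceeded *Flt1*, *Emcn* and *Podxl*, and BECs by the reverse. The study's methods describe a sort of both LECs and BECs, while every sample is labelled as sorted LECs. By this rule 1490 of the 3248 cells kept were BECs, 1641 were LECs and 117 neither. The LEC genes summed to 3381–6026 CPM in LECs and 84.4–218 CPM in BECs of the 7 mice, and the BEC genes to 1770–2266 CPM in BECs and 480–689 CPM in LECs. Cells were called cycling where *Mki67*, *Top2a*, *Ccnb1*, *Ccnb2*, *Cdk1*, *Cdc20* and *Prc1* summed to at least 500 CPM, a rule that uses none of the members. Non-cycling here means only below that threshold. Whether such cells were quiescent, in G1 or entering S phase was not tested. The plates held 99969650–151812175 reads each, and reads summed over the LECs of a mouse came to 55616045–194353210 and over the BECs to 38402388–99630824.

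Markers of fibroblasts and mural cells moved with genotype, while those of keratinocytes and immune cells overlapped between genotypes. The keratinocyte genes summed to 199–355 CPM in control and 71.1–341 CPM in mutant LECs, and to 325–473 and 12.9–695 CPM in BECs. All 6 fibroblast genes (*Col1a1*, *Col1a2*, *Col3a1*, *Pdgfra*, *Dcn*, *Lum*) were detected in every mouse. They summed to 243–455 CPM in control and 26.9–127 CPM in mutant LECs, and to 735–972 CPM in control and 17.6–70.2 CPM in mutant BECs. The 6 mural cell genes summed to 308–711 CPM in control and 33.9–218 CPM in mutant BECs, where *Notch3* was at 0 in 1 mutant mouse. Mutants 1–4 and the other animals also belong to separate series of plate numbers, with only mutant 5 in the series of the controls.

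Members were ranked in non-cycling cells per unit of length (RPKM, CPM divided by the exon length in kilobases). *Cdk4*, the partner of all D cyclins, was at the head of the list in non-cycling LECs of controls, with 101 ± 3.31 RPKM (SD, n = 2). *Ccnd1* and *Cdkn1a* followed with overlapping ranges, at 37.4 ± 13.7 and 36.5 ± 0.414 RPKM, and *Rb1*, the last detected member, was at 5.03 ± 0.237 RPKM. In non-cycling LECs of mutant mice *Cdkn1a* (111 ± 48.1 RPKM, n = 5), *Ccnd1* (108 ± 13.8 RPKM) and *Cdk4* (97.6 ± 13.98 RPKM) overlapped at the top, and *Ccnd2* was apart from them at 27.1 ± 4.17 RPKM. The order in non-cycling BECs was different below *Cdk4*. In those of controls *Cdkn1c* stood at 59.7 ± 11.5 RPKM, overlapping *Ccnd1* at 63.5 ± 30.1 RPKM, while *Cdk6* was the lowest detected member at 3.53 ± 0.253 RPKM. The same genes were first and last in non-cycling BECs of mutants, *Cdk4* at 86.2 ± 3.31 and *Cdk6* at 1.86 ± 0.464 RPKM. The ranges of *Ccnd2* and *Ccnd3* overlapped in each class and genotype.

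**Figure D1:**
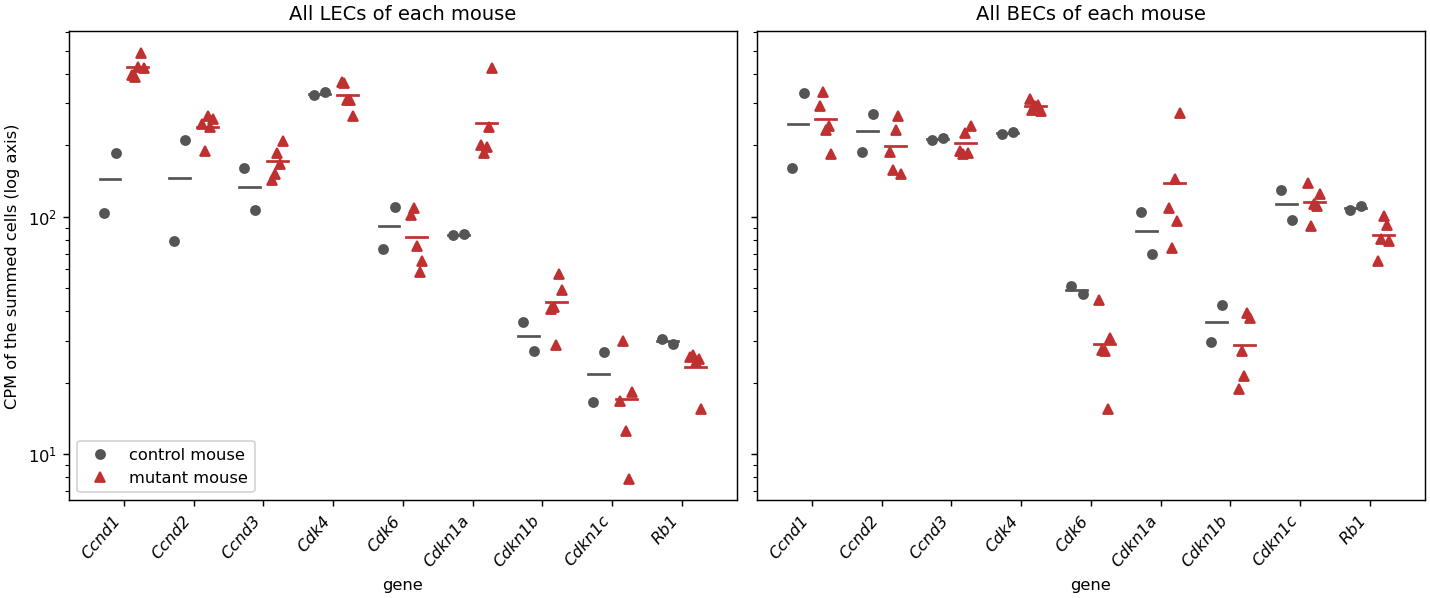
CPM (log axis) of each member except *Cdkn2a* in the summed LECs (left) and BECs (right) of each mouse, grey circles for the 2 controls, red triangles for the 5 mutants and lines for the means. *Ccnd1* and *Cdkn1a* of mutant LECs lie above both controls, whereas in BECs the same genes overlap.

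*Ccnd1*, the D cyclin that growth factor signaling induces, was higher in LECs of mutant mice. It stood at 104 and 184 CPM in controls 1 and 2, and at 396, 386, 426, 490 and 423 CPM in mutants 1–5. Every mutant mouse was thus above both controls. The fitted difference was 1.62 ± 0.22 on the log2 scale (SE), or 3.07-fold, with an adjusted p of 0.0137 (edgeR quasi-likelihood test on sums per mouse, adjusted over all genes). *Ccnd1* was the only member called in this comparison, 1 of 10, where 2.76% of all 19758 genes tested were called, 1.96% as higher. DESeq2 called 2, *Ccnd1* and *Cdkn1a*, where it called 13.7% of genes. The control mice differed from each other, and the log2 difference was 1.32 without control 1 and 2.04 without control 2. Within the plate series that holds both genotypes, mutant 5 stood against the same 2 controls at 423 CPM. With that series as a block, where the genotype term rests on mutant 5 and the 2 controls, the log2 difference was 1.60 with an adjusted p of 0.0671. Without cells that carried other cell types' markers it was 1.60 with an adjusted p of 0.0121. In bulk sums of this kind, fewer expressing cells and less RNA per cell cannot be told apart without the shares of cells given below.

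*Ccnd2* and *Ccnd3*, the other D cyclins, were not called in LECs. *Ccnd2* stood at 78.9 and 211 CPM in the controls and at 247, 188, 264, 239 and 258 CPM in mutants 1–5. Mutant 2 was below control 2, so the groups overlapped, and the log2 difference of 0.79 ± 0.32 had an adjusted p of 0.223. Its size rested on 1 control: it was 1.60 with an adjusted p of 0.0223 without control 2, and 0.30 without control 1. *Ccnd3* ranged from 107 to 161 CPM in controls and from 143 to 208 CPM in mutants, with a log2 difference of 0.39 ± 0.23 and an adjusted p of 0.372.

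The catalytic partners did not move in LECs by more than their errors. *Cdk4* was at 324 and 334 CPM in the controls and at 265–370 CPM in the mutants. *Cdk6* was at 73.2 and 110 CPM in the controls and at 58.3–109 CPM in the mutants. The 2 mutant mice with the highest *Cdk6* (102 and 109 CPM) were mutants 1 and 2, and the other 3 lay at or below 75.2 CPM.

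*Cdkn1a*, which encodes the CDK inhibitor p21 and is a known target of p53, differed by about as much but missed the threshold. It stood at 83.5 and 84.5 CPM in the controls and at 200, 185, 196, 239 and 424 CPM in mutants 1–5. Every mutant was above both controls, and mutant 5 stood apart from the rest. The log2 difference was 1.61 ± 0.35 with an adjusted p of 0.0524. It was 1.33 with an adjusted p of 0.0141 without mutant 5, and 2.03 with an adjusted p of 0.0271 without cells carrying other cell types' markers. DESeq2 gave 1.58 with an adjusted p of 2.8e-05. With the plate series as a block edgeR gave 2.37 with an adjusted p of 0.00769. The genotype term of that fit rests on mutant 5 alone, the highest mouse, against the 2 controls.

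The remaining inhibitors and *Rb1* were not called. *Cdkn1b*, encoding p27, was at 36.0 and 27.2 CPM in controls and at 28.8–57.2 CPM in mutant LECs, a log2 difference of 0.50 ± 0.29 with an adjusted p of 0.371. *Cdkn1c*, encoding p57, overlapped fully, at 16.6 and 26.9 CPM in controls and 7.87–30.0 CPM in mutants. *Rb1*, the substrate of the D cyclin kinases, was at 30.5 and 29.3 CPM in controls and at 15.5–26.1 CPM in mutants. All mutants were lower, but the log2 difference of −0.31 ± 0.26 had an adjusted p of 0.551. In all, *Ccnd1*, *Cdkn1a* and *Rb1* were the 3 of 10 members whose mice did not overlap between genotypes, where 25.2% of all genes tested behaved so. The median log2 difference was 0.45 over the 10 members and −0.01 over all genes tested. The former counts *Cdkn2a*, for which no fold is given below, and without it the middle value was that of *Ccnd3*, 0.39.

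*Cdkn2a* was barely detected. Its reads came from 3 of 1641 LECs, 24 reads in 1 cycling cell of mutant 1, 10 reads in 1 cycling cell of mutant 4 and 1 read in 1 non-cycling cell of mutant 3. No BEC had a read (0 of 1490 cells, which allows a share of up to 0.201%). That limit is on cells with a read, pooled over 7 mice, and leaves out transcripts that were missed and the spread between mice. It passed the filter on low counts only in the comparison of all LECs, through the mutant mice, and no fold is given.

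In BECs no member was called by edgeR (0 of 9 past the filter, where 2.12% of genes were called). By edgeR 1 member had an unadjusted p under 0.05, as had 3793 of all 19315 genes tested. DESeq2 called 1, where it called 12.6% of genes. That gene was *Cdk4* in both. *Cdk4* stood at 222 and 228 CPM in the controls and at 313, 280, 291, 294 and 277 CPM in mutants 1–5, so that all mutants were higher. The log2 difference was 0.43 ± 0.12, with an adjusted p of 0.117 by edgeR and 0.0176 by DESeq2.

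*Ccnd1* did not follow the pattern of LECs in the BECs of the same animals. It was at 160 and 331 CPM in the controls and at 183–335 CPM in the mutants, and its difference was smaller than its SE, as were those of *Ccnd2* and *Ccnd3*. *Cdk6* was at 51.2 and 47.2 CPM in controls and at 44.6, 27.6, 27.3, 15.5 and 30.8 CPM in mutants 1–5. All mutants were lower, with a log2 difference of −0.69 ± 0.35 and an adjusted p of 0.315. *Cdkn1a* was at 105 and 69.9 CPM in controls and at 74.0–144 CPM in mutants 1–4, and mutant 5 was again the highest at 273 CPM. Its log2 difference of 0.72 ± 0.47 had an adjusted p of 0.428. *Rb1* was at 106 and 111 CPM in controls and 65.3–100 CPM in mutants, with a log2 difference of −0.32 ± 0.19 and an adjusted p of 0.379. *Cdkn1b* and *Cdkn1c* differed by less than their SE. The groups of mice did not overlap for 3 of the 9 members (*Cdk4*, *Cdk6*, *Rb1*), where 25% of all genes did not. Medians were 0.01 over the members and 0.01 over all genes.

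Non-cycling cells were compared alone, since the share of cycling cells also moved with genotype. It was 12.6 ± 3.26% of LECs in mutant mice (9.09–16.3%) against 2.19% and 2.29% in the controls. The groups did not overlap, and the two-sided exact permutation p of 0.0952 is the smallest that 5 against 2 mice can give. In BECs the share was 5.29 ± 2.49% (1.72–8.70%) against 1.26% and 3.18% (exact permutation p = 0.190). In non-cycling LECs *Ccnd1* remained called, 1 of 9 members, where 0.716% of genes tested were called, 0.472% as higher. DESeq2 called 3 members and 10.4% of genes. *Ccnd1* stood at 106 and 181 CPM in controls and at 344, 383, 421, 484 and 433 CPM in mutants 1–5, again with every mutant above both controls. The log2 difference of 1.59 ± 0.23 had an adjusted p of 0.0363, which was lost without control 1 (0.0956) or without mutant 2, 3 or 4 (0.0646, 0.0984 and 0.0748). It was also lost with the plate series as a block (0.107). *Cdkn1a* in the same cells was at 80.5 and 81.8 CPM in controls and at 205, 175, 187, 238 and 434 CPM in mutants, 1.66 ± 0.37 with an adjusted p of 0.0808. *Ccnd2* was 0.92 ± 0.32 higher with an adjusted p of 0.199. In non-cycling BECs edgeR called 0 of 9 members, where 1.76% of genes were called. Of these members, 2 had an unadjusted p under 0.05, as had 3561 of all 19174 genes tested. They were *Cdk4*, 0.37 ± 0.12 higher, and *Cdk6*, −0.84 ± 0.30. DESeq2 called *Cdk4*, where it called 11.7% of genes.

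**Figure D2:**
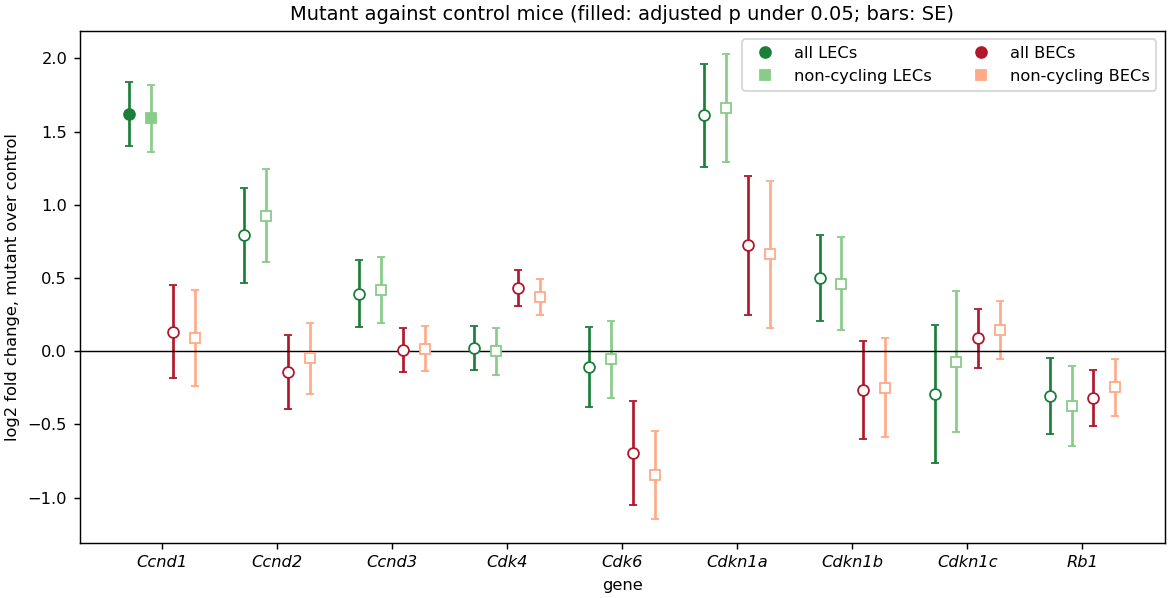
Log2 fold change of mutant over control mice for 9 members in all and in non-cycling LECs (green) and BECs (red), with SE bars and filled symbols for an adjusted p under 0.05. *Ccnd1* in all and in non-cycling LECs is filled, at 1.62 and 1.59, and the BEC points of *Ccnd1* lie at 0.13 and 0.09.

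The difference of the mutant effect between the classes was tested directly in non-cycling cells, with the mouse as a block. No member was called by edgeR (0 of 9, where 0.126% of genes were). By edgeR 5 members had an unadjusted p under 0.05, as had 2327 of all 21475 genes tested. DESeq2 called 3, where it called 6% of genes. The mutant effect on *Ccnd1* was larger in LECs than in BECs by 1.46 ± 0.32 on the log2 scale, with an adjusted p of 0.163 by edgeR and 0.00151 by DESeq2. The same difference was 1.06 ± 0.28 for *Ccnd2* (adjusted p = 0.222 by edgeR and 0.0150 by DESeq2). For *Cdkn1a* it was 1.03 ± 0.31 (adjusted p = 0.280 by edgeR and 0.0349 by DESeq2). Each of these 3 differences was past the threshold by DESeq2 alone.

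Shares of cells with a read, taken after every cell was thinned to 50000 reads, show how many cells carried each transcript. *Ccnd1* was found in 72.1 ± 7.17% of LECs in mutant mice (63.7–80.7%) and in 41.0% and 52.0% in the controls, groups that did not overlap. The exact permutation p was 0.0952, the smallest possible, and 0.476 after adjustment over the 20 shares compared, so no share could pass 0.05. *Cdkn1a* was found in 59.2 ± 17.8% of mutant LECs (40.6–88.6%) against 45.9% and 30.3%, where mutant 2 was below control 1 (exact permutation p = 0.190). *Cdk4* was more widely found in mutant LECs and BECs, in 87.8 ± 1.91% against 78.7% and 82.9% of LECs and in 82.3 ± 5.10% against 74.2% and 65.6% of BECs. *Cdkn1c* was less widely found in mutant LECs, in 10.1 ± 1.72% against 12.6% and 17.7%. Each of these 3 had non-overlapping groups and an exact permutation p of 0.0952. In all, the shares of 3 of 10 members did not overlap in LECs and that of 1 of 10 in BECs, where those of 29.1% and 26% of all genes tested did not. Without thinning the *Cdk4* share in LECs turned to 95.4% against 97.8%, and that of *Cdk4* in BECs to 93.7% against 93.0%. The *Cdkn1c* groups in LECs overlapped without thinning (19.8–42.5% against 40.0–43.7%). They also overlapped where at least 3 reads were required after thinning (3.85–7.49% against 4.37–9.14%). With at least 3 reads the *Cdkn1a* groups in LECs did not overlap (32.1–74.9% against 16.6–16.9%), nor did those of *Ccnd2*, *Ccnd3* and *Cdkn1b*. How many of all genes did so at that setting was not counted.

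D cyclins were also counted together in each thinned cell. All 3 were found in 31.0%, 21.4%, 37.7%, 24.7% and 41.1% of LECs of mutants 1–5 and in 11.5% and 14.3% of control LECs. None of the 3 was found in 7.66 ± 4.03% of mutant LECs and in 15.1 ± 2.06% of control LECs (SD). In BECs all 3 were found in 23.8 ± 6.73% of mutant cells and in 23.3% and 13.4% of control cells, so the groups overlapped there.

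Within LECs the level of *Ccnd1* varied with which marker list a cell scored highest for. Non-cycling LECs were split by the best of 4 lists (valve, collecting, capillary and *Ptx3* capillary). Between 27.8% and 41.7% of cells of a list lay within 0.25 of their next score, so these are ranges and not types, and no test was made. In cells led by the *Ptx3* list *Ccnd1* stood at 200 and 218 CPM in controls and at 631, 778, 660, 862 and 585 CPM in mutants 1–5. In cells led by the capillary list it was 102 and 232 CPM in controls and 215–305 CPM in mutants, and the genotypes overlapped, as they did in cells of the collecting list (113–149 against 118–298 CPM). In cells of the valve list it was 19.3 and 93.0 CPM against 124–357 CPM. Within each mutant mouse *Cdkn1a* was also highest in these cells, at 310–491 CPM in mutant cells of the *Ptx3* list against 12.4 and 118 CPM in the controls. Cells of the *Ptx3* list numbered 46 in the controls and 378 in the mutants. The capillary list had 129 and 300, the collecting list 119 and 191 and the valve list 56 and 258. The mix of lists thus differed between genotypes, and its part in the differences over all LECs was not tested.

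**Figure D3:**
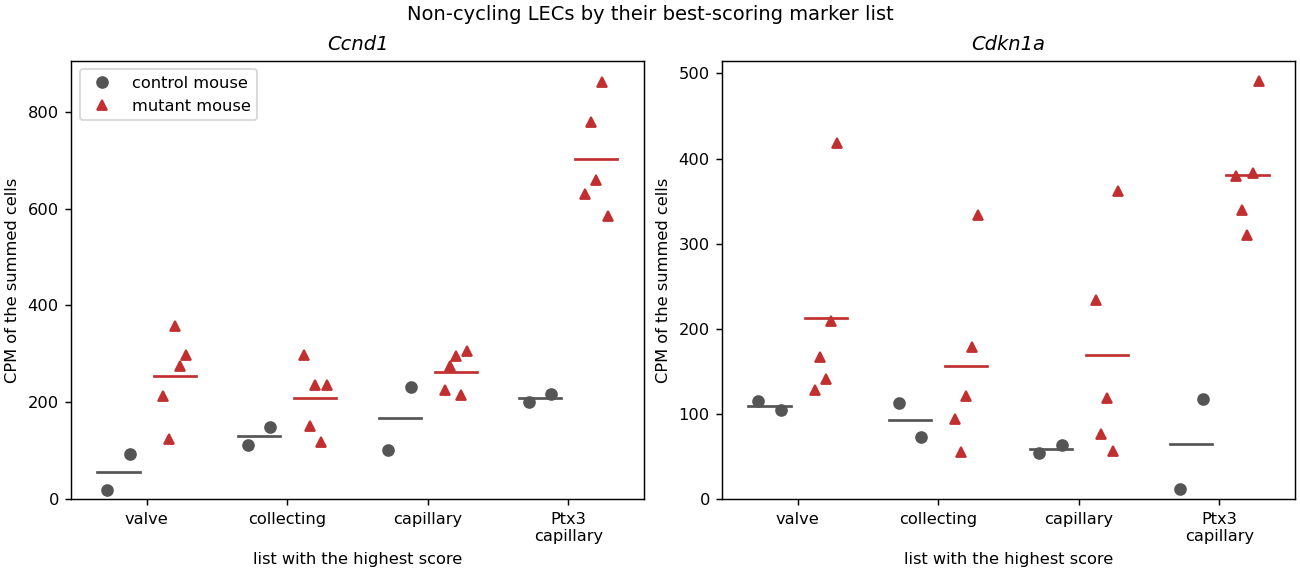
CPM of *Ccnd1* (left) and *Cdkn1a* (right) in non-cycling LECs, summed per mouse by the marker list with the highest score, grey circles for controls, red triangles for mutants and lines for means. The *Ccnd1* values of mutant cells led by the *Ptx3* list, 585–862 CPM, lie above all other points of that gene.

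Among BECs, *Ccnd1* was at 137–272 CPM in mutant cells of the arterial list against 91.6 and 125.5 CPM in controls, which did not overlap. The genotypes overlapped in cells of the other lists. *Ccnd1* was 267–708 CPM in mutant cells of the angiogenic list against 143 and 476 CPM in controls, and 136–387 CPM in mutant cells of the venous list against 229 and 581.6 CPM. It was 169–382 CPM in mutant cells of the capillary list against 164 and 337 CPM. *Cdkn1c* in mutant cells was at 140 ± 37.4 CPM in the venous and 131 ± 54.6 CPM in the capillary list, against 44.7 ± 17.5 and 153 ± 57.5 CPM in controls. *Rb1* averaged 60.2 CPM in mutant and 46.2 CPM in control cells of the venous list, and 139 and 116 CPM in the capillary. It averaged 115 and 134 CPM in the arterial and 66.8 and 87.5 CPM in the angiogenic list. The venous list had 501 mutant and 38 control non-cycling cells, the capillary 280 and 146, arterial 170 and 80 and angiogenic 160 and 45. The mix thus differed between genotypes, and its part in the differences over all BECs was not tested.

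Cycling cells were compared with non-cycling cells of the same mutant mice, since the controls had only 2–5 cycling cells per class. Of the 9 members past the filter in LECs, 2 were called, both lower in cycling cells, where 12.1% of all genes tested were called, 5.19% as lower. *Ccnd2* went from 266, 189, 284, 253 and 284 CPM in non-cycling to 162, 183, 119, 154 and 108 CPM in cycling LECs of mutants 1–5. All 5 mice went down, mutant 2 by the least. The log2 difference was −0.77 ± 0.19 with an adjusted p of 0.0375, while the median of all genes tested was −0.13. It missed the threshold without mutant 1, 3, 4 or 5 (0.0789, 0.115, 0.0750 and 0.0954) and where class markers had to exceed the other class 5 times (0.162).

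*Cdkn1c*, an inhibitor linked to quiescence, was lower in cycling LECs. It fell from 20.3, 35.8, 14.1, 9.06 and 20.1 CPM to 1.09, 0.111, 0.714, 0.374 and 8.61 CPM in mutants 1–5. These cycling values rest on 13, 1, 10, 3 and 249 reads, so all but mutant 5 are near the floor. The log2 difference was −4.22 ± 0.97 with an adjusted p of 0.0302. The call was lost without mutant 1, 3 or 4 (0.0899, 0.0926 and 0.0838), without the mouse as a block (−3.10, adjusted p = 0.0548) and with a cycling threshold of 250 CPM, where the log2 difference was −2.60 with an adjusted p of 0.119. After thinning, *Cdkn1c* was found in 7 of 156 cycling and 123 of 1127 non-cycling LECs. Its level in non-cycling mutant LECs also varied with the marker list. It was 39.0 ± 14.5 CPM in the collecting, 28.5 ± 22.5 in the valve, 14.8 ± 16.1 in the capillary and 7.83 ± 4.20 in the *Ptx3* list. Cycling cells were not split by list, so the part of that mix in this difference was not tested.

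None of the other members was called by edgeR. *Cdk6* was lower in cycling LECs of all 5 mutants (23.6–97.0 against 61.7–111 CPM), −0.75 ± 0.22 with an adjusted p of 0.0690. *Cdk4* was higher in all 5 (320–405 against 255–365 CPM), 0.25 ± 0.07 with an adjusted p of 0.0614. Thus 4 members moved the same way in every mouse, where 28.3% of all genes did, and DESeq2 called these 4, where it called 27.5% of genes. *Ccnd1* was 365–627 CPM in cycling and 344–484 CPM in non-cycling LECs, with a log2 difference of 0.25 ± 0.15 and an adjusted p of 0.330. It overlapped between the cycle states, in contrast to *Ccnd2*. *Cdkn1a* was likewise 179–364 against 175–434 CPM.

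In BECs the same test, on 4 mice because mutant 4 had 3 cycling cells, called 0 of 9 members by edgeR, where 2.13% of genes were called. At an unadjusted p under 0.05 there were 3, and 2480 of all 14741 genes tested. DESeq2 called *Ccnd2* and *Cdkn1c*, where it called 13.6% of genes. *Ccnd2* was at 206, 165, 244 and 159 CPM in non-cycling and at 18.04, 99.1, 42.4 and 47.1 CPM in cycling BECs of mutants 1, 2, 3 and 5, lower in all 4. The log2 difference of −2.06 had an adjusted p of 0.0618, and the median over all genes was −0.28. *Cdkn1c* was at 148, 101, 118 and 126 CPM against 55.9, 18.6, 34.2 and 103 CPM, also lower in all 4, with a log2 difference of −1.42 ± 0.41 and an adjusted p of 0.128. *Cdk4* was higher in cycling BECs of 3 mice and lower in mutant 5 (237 against 281 CPM), 0.57 ± 0.22 with an adjusted p of 0.242. Cycling BECs of mutant 1 had 183 CPM of *Cdk6*, against 1.93–49.0 CPM in the other 3 mice.

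**Figure D4:**
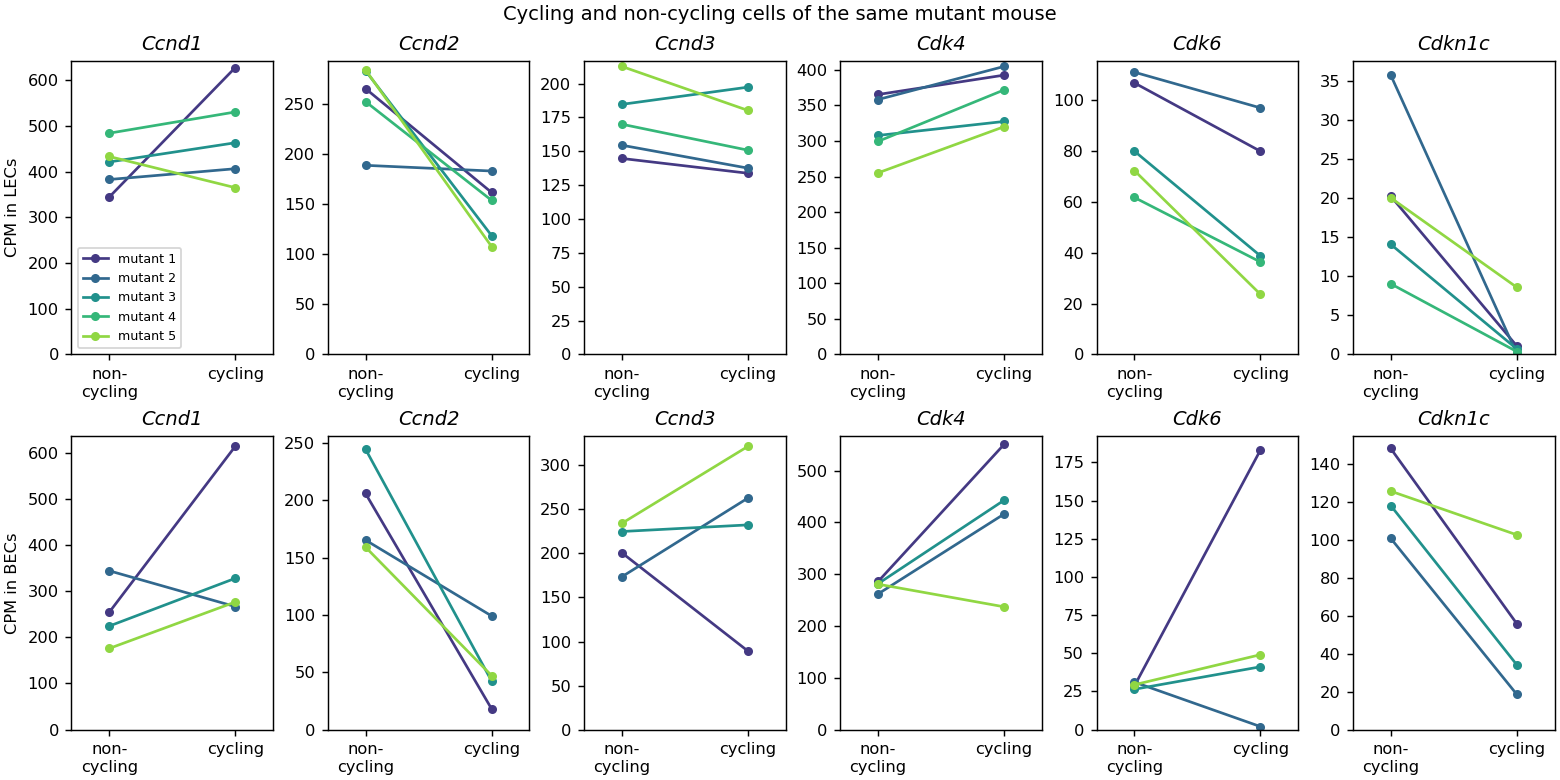
CPM (linear axes from 0) of 6 members in non-cycling and cycling LECs (top) and BECs (bottom), with 1 line per mutant mouse and mutant 4 left out for BECs. The lines of *Ccnd2* fall in all mice of both classes, and those of *Cdkn1c* reach 0.111–1.09 CPM in cycling LECs of mutants 1–4.

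Non-cycling LECs and BECs of the same mice differed most in *Rb1*, *Cdkn1c* and *Cdk6*. In mutant mice 6 of 9 members were called, 4 higher and 2 lower in LECs, where 24.3% of all genes tested were called, 12.1% as higher and 12.2% as lower. DESeq2 called 7 members and 33.4% of genes. *Cdk6* was at 107, 111, 80.0, 61.7 and 72.3 CPM in LECs and at 28.6, 31.1, 26.4, 14.8 and 29.4 CPM in BECs of mutants 1–5. The LEC value was higher in every mouse, 3.25-fold in the fit (1.70 ± 0.15 on the log2 scale, adjusted p = 0.000213). *Cdkn1a*, *Ccnd1* and *Cdkn1b* were higher in LECs by 0.94 ± 0.16, 0.74 ± 0.18 and 0.52 ± 0.13 on the log2 scale, with adjusted p of 0.00567, 0.0218 and 0.0270. Of these, *Cdkn1b* was called in 7 of 15 alternative settings and *Ccnd1* in 12.

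*Rb1* and *Cdkn1c* were higher in BECs. *Rb1* was at 23.6, 26.4, 25.3, 21.8 and 15.6 CPM in non-cycling LECs and at 66.5, 83.6, 104, 94.0 and 79.9 CPM in BECs of mutants 1–5. *Cdkn1c* was at 9.06–35.8 CPM in LECs and 101–148 CPM in BECs. The classes did not overlap for either gene. The log2 difference (LECs over BECs) was −1.97 ± 0.16 for *Rb1* and −2.79 ± 0.30 for *Cdkn1c*, with adjusted p of 0.000139 and 0.000563. *Ccnd3* was lower in LECs of all 5 mutants, −0.28 ± 0.09 with an adjusted p of 0.0727. *Cdk4* and *Ccnd2* were not called.

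In the control mice edgeR called 0 of 9 members, where 3.1% of genes were called. At an unadjusted p under 0.05 there were 7, and 3348 of all 18321 genes tested. DESeq2 called 4, where it called 17.1% of genes, and the fit had only 2 mice. *Rb1* was at 31.3 and 29.3 CPM in LECs against 106 and 108 CPM in BECs (−1.83 ± 0.25 on the log2 scale, adjusted p = 0.0523). *Cdkn1c* was at 16.9 and 26.5 CPM against 131 and 99.6 CPM (−2.44 ± 0.34, adjusted p = 0.0536). *Cdk6* was at 75.2 and 112 CPM against 51.9 and 46.9 CPM (0.88 ± 0.28, adjusted p = 0.212). *Ccnd1* had the opposite sign from mutant mice, at 106 and 181 CPM in LECs against 162 and 325 CPM in BECs (−0.74 ± 0.19, adjusted p = 0.158). In 7 of 9 members both control mice went the same way, as did 63.5% of all genes tested. In mutant mice 7 of 9 members went 1 way in all 5 mice, where 35.6% of genes did.

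**Figure D5:**
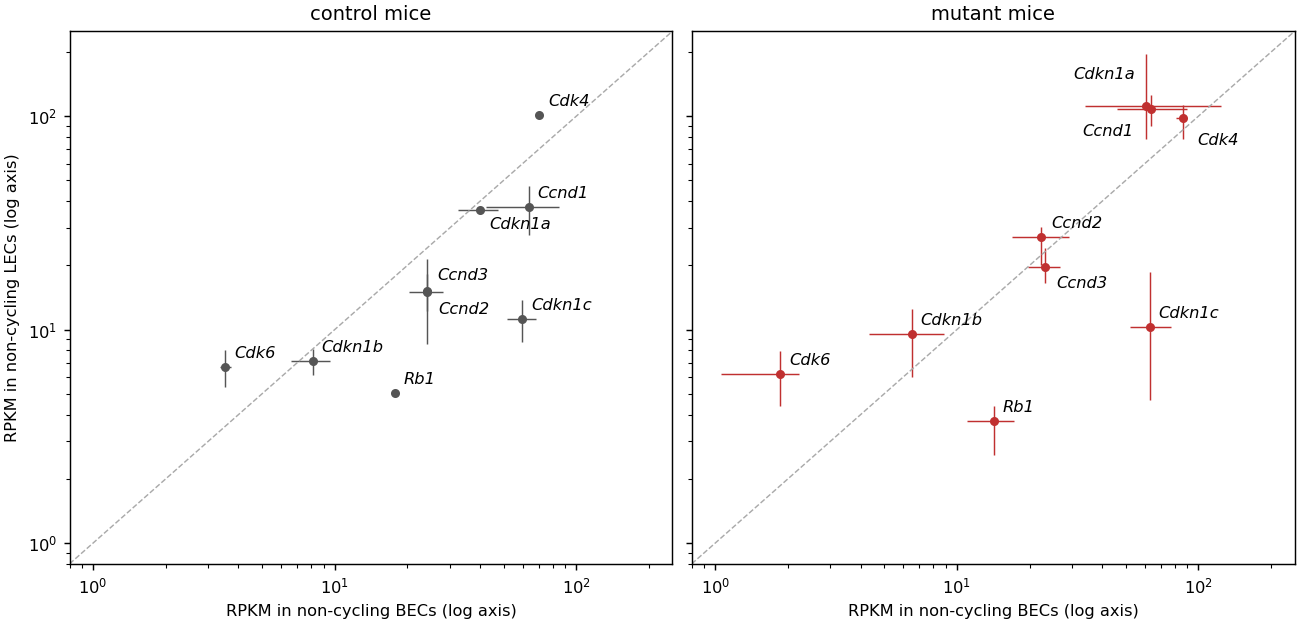
Mean RPKM of 9 members in non-cycling LECs (vertical) against non-cycling BECs (horizontal) of control (left) and mutant mice (right), both axes on log scales, with bars from the lowest to the highest mouse and a dashed line of equality. *Rb1* and *Cdkn1c* lie below the line in both genotypes and *Cdk6* above it, while *Ccnd1* is below the line in controls and above it in mutants.

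Of 35 other genes of G1 and S entry, 3 were called in LECs of mutant mice, all higher, where 2.76% of all genes tested were called. *Ccna2*, the S phase cyclin A, was at 18.5 and 17.7 CPM in controls and at 85.0–155 CPM in mutants, 2.75 ± 0.29 on the log2 scale with an adjusted p of 0.00599. *Ccne1*, cyclin E, also among the 3, had 2 reads over both controls and 3906 over the mutants. It passed the filter on low counts through the mutant mice, so its call adds no support, and neither a fold nor a p is given. In mutants it was at 19.8–71.4 CPM in cycling and 0.214–5.18 CPM in non-cycling LECs. Non-cycling LECs of the controls had 0 and 0.0336 CPM. *Phlda3*, a p53 target like *Cdkn1a*, was at 64.2 and 56.1 CPM in controls and 137–241 CPM in mutants, 1.63 ± 0.27 with an adjusted p of 0.0263. In non-cycling LECs *Ccna2* was at 18.1 and 13.1 CPM in controls and 18.6–23.8 CPM in mutants. None of the 35 was called there or in BECs. By edgeR 12 and 6 of them had an unadjusted p under 0.05. Of all genes tested, 3298 of 19280 and 3793 of 19315 had such a p. DESeq2 called 7 and 6 of the 35. In non-cycling BECs edgeR called 0 as well, with 4 at an unadjusted p under 0.05, where 3561 of all 19174 genes were. DESeq2 called 4. The median log2 difference of the 35 was 0.43 in all LECs and 0.24 in non-cycling LECs, and that of all genes tested was −0.01 in both.

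In cycling LECs 13 of the 35 were higher and 2 lower, where 12.1% of all genes tested were called, led by *Ccna2* (5.06 ± 0.14 on the log2 scale), *Cdkn2c*, *Cks1b* (2.60 ± 0.25) and *Cdkn2d* (2.68 ± 0.26), with adjusted p of 0.000879 or lower. *Cdkn2c* and *Cdkn2d* encode other INK4 inhibitors, and were higher in cycling LECs. The remaining INK4 gene, *Cdkn2b*, named after its values were seen, was called lower there, from 0.591–6.48 to 0–0.214 CPM. The cycling sums held 8029936–28933834 reads, so its cycling values are near the floor. *Cdkn2c* was at 21.9–29.6 CPM in non-cycling and 82.9–138 CPM in cycling LECs of the mutants. In cycling BECs 3 were called, all higher (*Ccna2*, *Cks1b* and *E2f8*). Between LECs and BECs of mutant mice 9 were higher in LECs and 3 lower, where 24.3% of all genes tested were called, among them the E2F genes *E2f8* (7.05–32.4 against 0.176–0.754 CPM), *E2f2* (17.5–42.6 against 0.184–3.45 CPM) and *E2f7* (3.89–9.15 against 11.3–26.6 CPM), and *Fbxo31* (54.3–61.6 against 11.3–28.0 CPM), whose product targets cyclin D1 for degradation. In controls only *Sesn1* was called, 1.61 ± 0.20 higher in LECs. For the difference of the mutant effect between classes edgeR called 0 of the 35. At an unadjusted p under 0.05 there were 5, and 2327 of all 21475 genes tested. DESeq2 called 3.

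The genes whose levels were most like those of *Ccnd1* over the 14 LEC and BEC sums, of 9865 searched, were *Ces2e* (Pearson r = 0.918), *Bcl6b* (0.912) and *Eif2s1* (0.902). The sums share mice and depth, so these are descriptions. *Ces2e* was at 40.1–71.0 CPM in mutant LECs and 0.125–11.4 CPM in control LECs, and at 9.05–35.5 CPM in mutant BECs.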

How the data were processed

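The deposited values are unnormalized counts of reads in each well, which the authors made with TopHat2 2.1.1 on GRCm38 plus the chicken *PIK3CA* sequence, duplicate removal in SAMtools 0.1.18 and featureCounts. The annotation version is not given in the sources used here. Symbols came from GENCODE vM21 for 46005 of 46517 genes, and RPKM used the deposited exon lengths. Wells with fewer than 200 genes, fewer than 50000 reads or over 10% mitochondrial reads were dropped, which left 3248 of 3456. A doublet caller was not run. Reads were summed per mouse (at least 5 cells) and tested in edgeR 4.0.16 (filterByExpr, TMM, quasi-likelihood, R 4.3.3), with DESeq2 1.42.0 as an alternative, after a check on simulated counts. Their spread was estimated without the tested term. EdgeR called 2% of 2-fold and 24% of 4-fold changes for LECs by genotype, and 0% and 31% for cycling LECs. It called 0% and 0% for LECs against BECs of controls, and 0% and 1% for the difference between classes. A member not called is therefore not shown to be unchanged. CPM in the text are of plain sums, and folds are from the fits. Per-cell shares used exact permutation over 21 splits in scipy 1.17.1. The limit given for *Cdkn2a* in BECs covers counting error only.

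The members and gene lists were chosen with earlier results of these data known. Named were all members, of the 35 other genes at most the 4 called ones with the lowest adjusted p per comparison (all where fewer than 5), and the 3 genes most like a called member (mean log2 CPM of at least 3, predicted genes left out). The other control mouse was not analysed here. Alternatives were other scaling, filters, class and cycling thresholds, thinned or deeper cells, cells without other types' markers, first plates, blocks and each mouse left out. Replicates are separate mice.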

Additional observations from a re-analysis of the deposited data

Results flagged for a closer look

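In 60 groups of 4 or more mice tested, 4 held a value far from the rest, by the gap to its neighbour over the range of the group (Dixon's 95% limit). Chance flags about 1 group in 20. *Cdkn1a* of mutant 5 stood at 423.6 CPM in all LECs, where the other mutants lay at 184.6–238.9 CPM, and at 434.0 CPM in non-cycling LECs, against 174.7–237.6 CPM. *Rb1* of mutant 5 was at 15.5 CPM in all LECs against 24.5–26.1 CPM. Both plates of mutant 5 gave like levels of *Cdkn1a* in LECs (410 and 436 CPM), while those of *Rb1* in LECs were 22.2 and 9.36 CPM. Mutant 5 is the only mutant mouse in the plate series of the controls, and the part of that series in these values was not tested. *Cdk6* of mutant 4 was at 14.8 CPM in non-cycling BECs against 26.4–31.1 CPM.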

How the results depend on the processing

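Of the member differences that exceeded their SE, 757 values under alternative settings kept their direction and side of the threshold, 47 became called, 30 lost the call and 3 turned sign. Those 3 were *Cdkn1a* in non-cycling BECs with a replicate block (−0.052) and, where class markers had to exceed the other class 5 times, *Ccnd1* (−0.0018) and *Cdkn1a* (−0.053) in cycling against non-cycling LECs. The thinned share of LECs with *Cdk4* turned to −2.37 points without thinning. The causes were not tested.

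Counts of members called in all LECs (1 as reported) were 2 with DESeq2, DESeq2 size factors, no expression filter, cells of at least 100000 reads, no cells with other types' markers or the 5-fold class rule, and 1–2 without each mouse. In non-cycling LECs (1) DESeq2 gave 3 and leaving out each mouse 0–2. A lone control was then assumed to vary like the mutants. BECs and non-cycling BECs (0) gave 1 with DESeq2. Cycling against non-cycling LECs (2) gave 4 with DESeq2, 1 with the 5-fold rule, 1 with no replicate block and 0–2 without each mouse. In BECs (0) the count was 2 with DESeq2 and 1 with no filter, thinned cells, the 5-fold rule or no replicate block. LECs against BECs of controls (0) gave 4 with DESeq2, 2 with DESeq2 size factors, no filter, thinned cells, the 5-fold rule or no replicate block, and 1 without cells of other types' markers or with a cycling threshold of 1000 CPM. Leaving out 1 of those 2 controls left no residual degrees of freedom and was not run. The difference between classes (0) gave 3 with DESeq2. In mutant LECs against BECs, *Cdk6*, *Cdkn1c* and *Rb1* were called in all 15 alternatives and *Cdkn1a* in 14.

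Mutants 1 and 2 and controls 1 and 2 share only a number, not a litter or day that the labels name. With that replicate block 0 members were called in LECs and 0 in non-cycling LECs (*Ccnd1* adjusted p = 0.195 and 0.336). With the plate series as a block the member called in all and in non-cycling LECs was *Cdkn1a* (adjusted p = 0.00769 and 0.0106), not *Ccnd1* (0.0671 and 0.107). The genotype term of that block rests on mutant 5 against the 2 controls, and mutant 5 held the flagged *Cdkn1a* values. Over all genes, the counts called by edgeR and by DESeq2 were 546 and 2490 in LECs, 410 and 2238 in BECs, 138 and 1813 in non-cycling LECs, 337 and 2013 in non-cycling BECs, 1887 and 4046 for cycling LECs, 314 and 1926 for cycling BECs, 568 and 2821 for controls, 4229 and 5804 for mutants, and 27 and 1064 for the difference. The replicate block left 3, 0, 4 and 26 in the first 4 and the plate series block 178, 54, 29 and 45. First plates alone gave 77 in non-cycling LECs, the 5-fold rule 979 for cycling LECs and 42 for the difference, no replicate block 757 for cycling BECs, and thinned cells 1705 for controls. With 2 controls, a change is seen only where it exceeds their spread.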
